A study of Phyllostachys nigra with 21 samples.

Results

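The genes described here are 4 of those that the gene annotation of the deposited table links to the last steps of melatonin synthesis, out of 42460 genes in the table. PH02Gene02432 and PH02Gene05544 are described as serotonin N-acetyltransferase (SNAT), and PH02Gene42942 and PH02Gene07987 as acetylserotonin O-methyltransferase (ASMT). They were chosen by these words in the gene descriptions and not by a change in expression. Another gene with the ASMT name, PH02Gene07984, was not among the 4. It had 10 counts in all, spread over 2 libraries, and was not analysed further. More genes carry the KEGG orthology term of ASMT without its name, and they are described below as a separate list. RNA from culms of the black bamboo Phyllostachys nigra (Pn) was sequenced in 21 libraries of 7 groups, with 3 libraries each. The treated culms were kept at 4 °C (low temperature, LT) or at 25 °C (room temperature, RT) for 1, 15, or 25 days, giving LT1d, LT15d, LT25d, RT1d, RT15d, and RT25d. Culms taken before treatment served as the CK. All plants were grown from rhizomes of field-grown Pn in greenhouse pots, and the reads were mapped to the genome of a related species, moso bamboo (Phyllostachys edulis).

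In plants, melatonin is made from tryptophan. Tryptophan decarboxylase (TDC) forms tryptamine, which tryptamine 5-hydroxylase (T5H) turns into serotonin, the branch point from which the 4 genes lead on. SNAT then acetylates serotonin, in the chloroplast as known from rice, and ASMT methylates the product, N-acetylserotonin, to give melatonin. Serotonin that does not take this route can be conjugated or can enter other products. Melatonin is known in plants as an antioxidant that accumulates under cold and other stresses. Transcripts were measured here, and neither enzyme activity nor melatonin was.

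PH02Gene02432 lies on scaffold 7 from position 35625566 to 35631176 on the plus strand, and PH02Gene05544 on scaffold 9 from 50792869 to 50811755, also on the plus strand. Both carry the same description, taken from a protein of Brachypodium distachyon, "serotonin N-acetyltransferase 1, chloroplastic". Neither has a KEGG orthology term in the table, and both carry terms for peptide N-acetyltransferase activity. PH02Gene42942 lies on scaffold 8 from 36227922 to 36230080 on the plus strand, and PH02Gene07987 on scaffold 7 from 40838347 to 40840875 on the minus strand. Both ASMT genes are described after the same Brachypodium protein, with the KEGG orthology term K22588 and the enzyme number of acetylserotonin O-methyltransferase. The positions are those of the deposited table for P. edulis and span whole genes, so they do not separate exons from introns. Since the members of each pair match the same protein, and reads of Pn were placed on another species, reads may have been split between near copies. The sources used here do not give how such reads were counted or whether strand was used.

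The total count per library was between 33957497 and 50338658. In LT15d, LT25d, and RT15d the 3 libraries of a group differed by little more than counting noise (1.45 to 1.79 times that of Poisson counts, taking a read pair as 4 counts), whereas libraries of the other groups differed by 4.90 to 87.7 times. The methods of the study speak of several shoots per treatment as biological replicates, but no source used here ties a library to a shoot, so p-values measure only the spread between libraries. Genes for chlorophyll a-b binding proteins, markers of green tissue, were present in every library. Their summed level was 5.36 to 13.0 FPKM (fragments mapped to a transcript, scaled by its length and by the fragments mapped in the library) in LT1d, against 388 to 566 FPKM in RT1d and 407 to 697 FPKM in CK. Culm tissue was sampled in bulk, so fewer cells of a type and less RNA per cell cannot be told apart. In CK, replicate 1 had the highest FPKM of all 4 genes, and in RT25d, replicate 1 had the lowest FPKM of all 4.

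Both SNAT genes were expressed in all 21 libraries, and the ASMT genes at much lower levels. PH02Gene02432 had a mean of 10.5 FPKM over all libraries and PH02Gene05544 a mean of 16.8 FPKM, compared with 2.36 FPKM for PH02Gene42942 and 0.508 FPKM for PH02Gene07987. PH02Gene42942 reached 1 FPKM in 10 libraries and PH02Gene07987 in 3, the minimum for a gene to be tested (2 libraries of LT25d and 1 of RT1d). The counts behind these levels were 0 to 106 per library for PH02Gene07987, so its values are coarse.

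**Figure D1:**
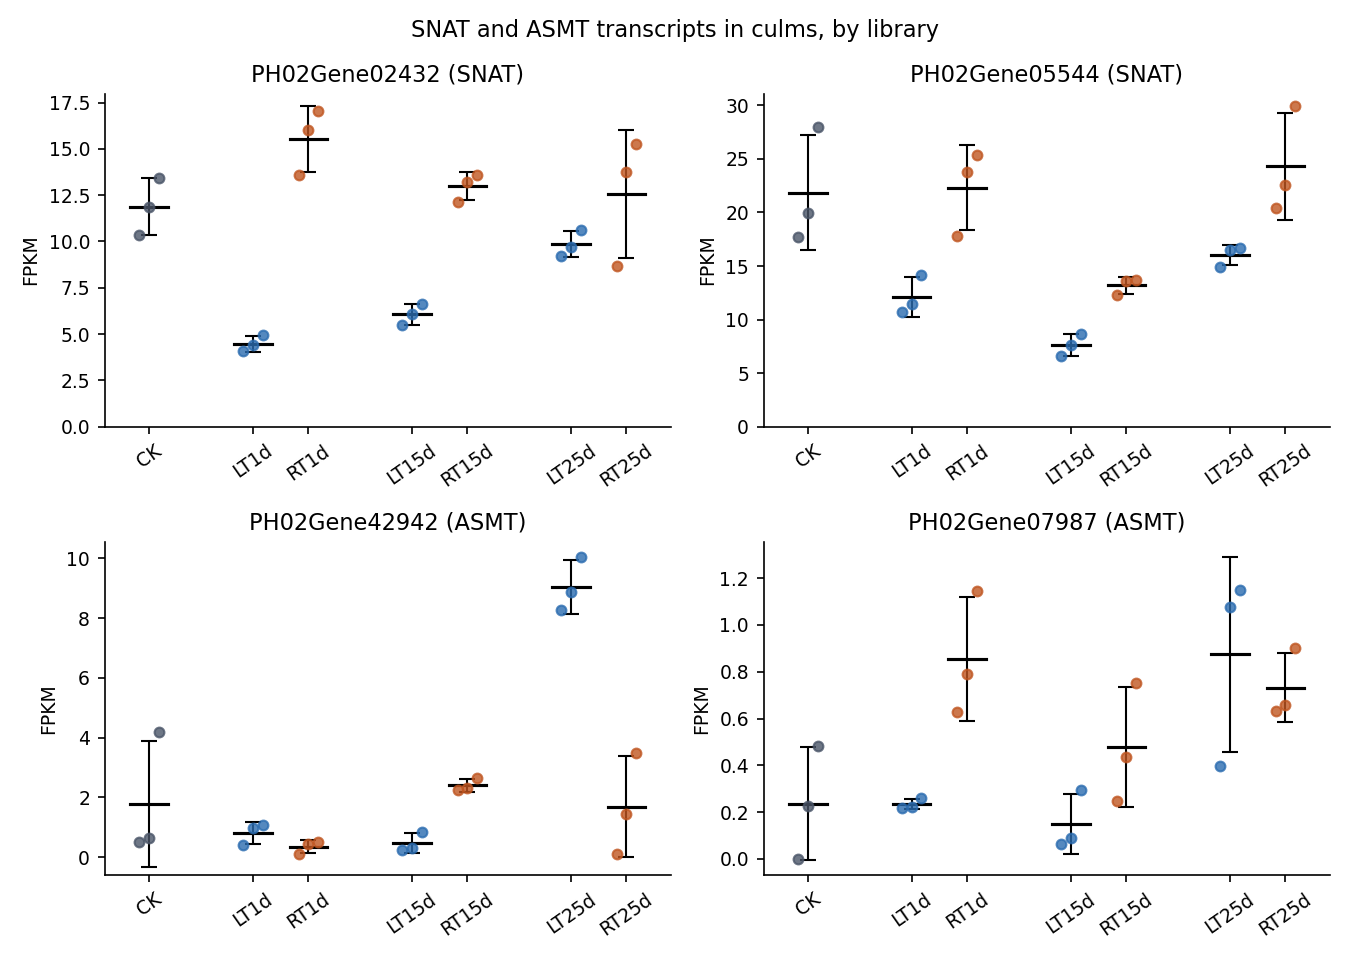
FPKM of the 4 genes in each library (points), with the group mean (bar) and SD (n = 3). Groups run by day, with LT in blue left of RT in orange and CK in grey. PH02Gene02432 is lowest in LT1d, PH02Gene05544 is lowest in LT15d, and PH02Gene42942 is highest in LT25d.

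The first comparison asked how LT changed each gene relative to RT on the same day. PH02Gene02432 fell in LT1d, and PH02Gene42942 rose in LT25d. On Day 15 both SNAT genes were lower in LT at an edgeR adjusted p under 0.05. Their changes were under 2-fold, and no member was called on that day. A gene was called when its p in edgeR's quasi-likelihood test, adjusted by Benjamini-Hochberg, was 0.05 or less and its fold change was at least 2. By this rule 1 of the 4 genes was called in LT1d against RT1d, where 44.2% of the 29913 genes tested were called. None was called in LT15d against RT15d, where 40.1% of all tested genes were called, and 1 was called in LT25d against RT25d, where 24.5% were called. Of the 4 genes, 3 had an unadjusted edgeR p under 0.05 on Day 15, and limma and DESeq2 each called 1 gene there.

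PH02Gene02432, the SNAT gene on scaffold 7, had 4.07, 4.39, and 4.94 FPKM in LT1d, against 16.0, 17.1, and 13.6 FPKM in RT1d. All LT1d libraries lay below all RT1d libraries. Overlap of libraries refers to FPKM throughout, and the share of all tested genes without overlap is not given here. The fitted log2 fold change was −1.27 ± 0.16 (SE, n = 3 each, edgeR adjusted p = 1.75e-06). It was called in every alternative tried and with any one library left out. The FPKM means differed 3.48-fold and the fitted values 2.42-fold, the fitted values being scaled by TMM. With scaling by library size only, the log2 fold change was −1.75. That scaling placed the median of all tested genes at −0.53 in LT1d against RT1d and at −0.37 in LT15d against RT15d, compared with −0.06 and −0.02 under TMM. It also lowered the share of called genes that were higher in LT to 29.2% on Day 1 and 32.3% on Day 15, against 47.0% and 48.0% under TMM.

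On Day 15, PH02Gene02432 had 5.50, 6.65, and 6.06 FPKM in LT15d, against 13.2, 12.1, and 13.6 FPKM in RT15d. The libraries did not overlap, but the fitted log2 fold change of −0.70 ± 0.15 (SE, edgeR adjusted p = 0.000795) was under the 2-fold limit, and with scaling by library size only it passed (−1.05). On Day 25 the gene had 9.72, 9.21, and 10.6 FPKM in LT25d, against 8.67, 13.7, and 15.3 FPKM in RT25d. These libraries overlapped, and the log2 fold change was −0.30 ± 0.15 (SE, edgeR adjusted p = 0.119). The LT effect itself was then compared between days. It was smaller on Day 25 than on Day 1 by 0.97 ± 0.22 on the log2 scale (SE, edgeR adjusted p = 0.00103) and smaller on Day 15 than on Day 1 by 0.57 ± 0.22 (SE, edgeR adjusted p = 0.0398). Both differences were under the 2-fold limit.

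PH02Gene05544, the SNAT gene on scaffold 9, was lower in LT than in RT by less than the fold limit on each day. It had 14.2, 10.7, and 11.5 FPKM in LT1d, against 23.8, 25.4, and 17.8 FPKM in RT1d. It had 7.65, 6.60, and 8.64 FPKM in LT15d, against 13.7, 12.3, and 13.6 FPKM in RT15d. It had 14.9, 16.7, and 16.5 FPKM in LT25d, against 20.4, 22.6, and 29.9 FPKM in RT25d. In FPKM, every LT library lay below every RT library on all 3 days. The FPKM means differed 1.84-, 1.73-, and 1.52-fold on Days 1, 15, and 25. The fitted values, scaled by TMM, differed 1.28-, 1.32-, and 1.47-fold. The gene was nevertheless not called on any day, since the fitted log2 fold changes of −0.36 ± 0.16, −0.40 ± 0.16, and −0.56 ± 0.16 (SE) on Days 1, 15, and 25 were all under the 2-fold limit (edgeR adjusted p = 0.0535, 0.0375, and 0.00798). The LT effect on Day 15 differed from that on Day 1 by −0.04 ± 0.22 (SE, edgeR adjusted p = 0.909), and that on Day 25 by −0.20 ± 0.22 (SE, edgeR adjusted p = 0.465).

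PH02Gene42942, the ASMT gene on scaffold 8, was not called in LT1d or LT15d and was higher in LT25d than in RT25d. It had 8.86, 8.26, and 10.0 FPKM in LT25d, against 0.120, 1.46, and 3.47 FPKM in RT25d. The libraries did not overlap, although RT25d spread widely. The log2 fold change was 2.48 ± 0.84 (SE, edgeR adjusted p = 0.0228). The call was lost without LT25d replicate 3 (adjusted p = 0.0507), without RT25d replicate 1 (log2 fold change 1.93, adjusted p = 0.0519), without RT25d replicate 2 (adjusted p = 0.0734), and when each of the 3 groups with little spread was summed to 1 library (adjusted p = 0.216).

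On Day 1, PH02Gene42942 had 1.07, 0.960, and 0.404 FPKM in LT1d, against 0.0915, 0.438, and 0.504 FPKM in RT1d. These low levels overlapped (log2 fold change 1.73 ± 0.90, SE, edgeR adjusted p = 0.0978). On Day 15, the gene had 0.314, 0.236, and 0.850 FPKM in LT15d, against 2.32, 2.24, and 2.65 FPKM in RT15d. All LT15d libraries lay below all RT15d libraries, with a log2 fold change of −1.95 ± 0.86 (SE), but the edgeR adjusted p was 0.0569. This comparison was called under 6 of 10 alternatives, including DESeq2 and limma, and without LT15d replicate 3. The LT effect on Day 15 differed from that on Day 1 by −3.68 ± 1.24 (SE, edgeR adjusted p = 0.0221), a call made in 1 of the 4 genes beside 33.2% of all tested genes. It was lost without LT15d replicate 1 (adjusted p = 0.0514), without LT15d replicate 2 (0.0541), without RT1d replicate 1 (0.0531), and with the groups summed (0.269). The LT effect on Day 25 differed from that on Day 1 by 0.75 ± 1.21 (SE, edgeR adjusted p = 0.615). For that difference none of the 4 genes was called, beside 44.9% of all tested genes. Of the 4, 1 had an unadjusted edgeR p under 0.05, and limma called 2 and DESeq2 0.

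PH02Gene07987, the ASMT gene on scaffold 7, was not called on any day. It had 0.223, 0.259, and 0.219 FPKM in LT1d, against 1.15, 0.790, and 0.630 FPKM in RT1d. The LT1d libraries lay below those of RT1d, yet the log2 fold change of −1.31 ± 0.78 (SE) had an edgeR adjusted p of 0.147. The gene had 0.0894, 0.0647, and 0.297 FPKM in LT15d, against 0.753, 0.437, and 0.246 FPKM in RT15d, and 1.08, 0.396, and 1.15 FPKM in LT25d, against 0.634, 0.658, and 0.901 FPKM in RT25d. Libraries overlapped on both days, with log2 fold changes of −1.27 ± 0.80 on Day 15 and 0.30 ± 0.74 on Day 25 (SE, edgeR adjusted p = 0.172 and 0.767).

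The second comparison set each treated group against CK. The 6 comparisons share the CK libraries, so they are given side by side. PH02Gene02432 had 13.4, 10.4, and 11.9 FPKM in CK. Compared with CK it was lower in LT1d by a log2 fold change of −1.22 ± 0.16 (SE, edgeR adjusted p = 5.15e-06), the only group in which it was called. In LT15d and LT25d the values were −0.82 ± 0.16 and −0.52 ± 0.15 (SE, edgeR adjusted p = 0.000206 and 0.00946), under the 2-fold limit. In RT1d, RT15d, and RT25d they were 0.06, −0.12, and −0.22, with SE of 0.15 each and edgeR adjusted p of 0.791, 0.546, and 0.259.

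PH02Gene05544 had 28.0, 17.7, and 19.9 FPKM in CK. It fell in LT15d, with a log2 fold change of −1.36 ± 0.16 (SE, edgeR adjusted p = 1.39e-06), and this call held under every alternative and with any one library left out. All LT15d libraries lay below all CK libraries. In LT1d and LT25d the log2 fold changes were −0.65 ± 0.16 and −0.68 ± 0.16 (SE, edgeR adjusted p = 0.00202 and 0.00160). RT15d, at −0.96 ± 0.16 (SE, edgeR adjusted p = 0.000105), was just under the 2-fold limit and passed it without CK replicate 2 or without CK replicate 3. RT1d and RT25d had −0.29 ± 0.16 and −0.13 ± 0.16 (SE, edgeR adjusted p = 0.143 and 0.527).

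PH02Gene42942 had 4.20, 0.500, and 0.646 FPKM in CK, so that replicate 1 stood far above the other 2 libraries. The gene was higher in LT25d than in CK (log2 fold change 2.19 ± 0.83, SE, edgeR adjusted p = 0.0353), and the libraries did not overlap. Leaving out CK replicate 2 or 3, or any one LT25d library, ended this call (adjusted p 0.0569 to 0.122), as did the fit of the compared libraries alone (0.0555), the summed groups (0.243), and the replicate number as a block (2.14, adjusted p = 0.0549). Without CK replicate 1 it was 3.62 (adjusted p = 0.00257). The gene was lower in RT1d than in CK by −2.58 ± 0.90 (SE, edgeR adjusted p = 0.0270), although the libraries overlapped. Without CK replicate 1 that value was −1.13 (adjusted p = 0.284), without RT1d replicate 1 −2.12 (0.103), and without RT1d replicate 2 −2.77 (0.0561). LT1d, LT15d, RT15d, and RT25d had −0.85, −1.68, 0.28, and −0.29, with SE between 0.81 and 0.86, and were not called. Without CK replicate 1 these 4 values were 0.57, −0.25, 1.73, and 1.17, still not called, so that LT1d and RT25d changed sign.

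PH02Gene07987 had 0.483, 0, and 0.225 FPKM in CK, where replicate 2 had no count. No treated group was called against CK. The largest values were 1.70 ± 0.78 in LT25d, 1.57 ± 0.78 in RT1d, and 1.39 ± 0.78 in RT25d (log2 fold change ± SE, edgeR adjusted p = 0.0768, 0.111, and 0.149). Without CK replicate 1 these were 2.63, 2.53, and 2.35 (edgeR adjusted p = 0.0177, 0.0238, and 0.0316), and all 3 were then called, as they were by limma on log2(FPKM + 0.1). LT25d was also called with scaling by library size only (1.94, edgeR adjusted p = 0.0487) and with counts divided by 4 (1.61, edgeR adjusted p = 0.0359). The gene passed the filter only through libraries of LT25d and RT1d, so calls in these groups are not independent of it. In RT1d, the ASMT gene called against CK was thus PH02Gene42942 in the fit reported here but PH02Gene07987 without CK replicate 1 and in limma on log2(FPKM + 0.1), where PH02Gene42942 had −1.65 (adjusted p = 0.0984). Among the 4 genes, 1 was called in each of LT1d, LT15d, LT25d, and RT1d against CK, where 34.0%, 38.6%, 28.3%, and 22.8% of all tested genes were called. None was called in RT15d or RT25d, where 25.7% and 26.2% of all tested genes were called. In RT15d 1 gene and in RT25d 0 genes had an unadjusted edgeR p under 0.05, and limma and DESeq2 called 0 in both.

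**Figure D2:**
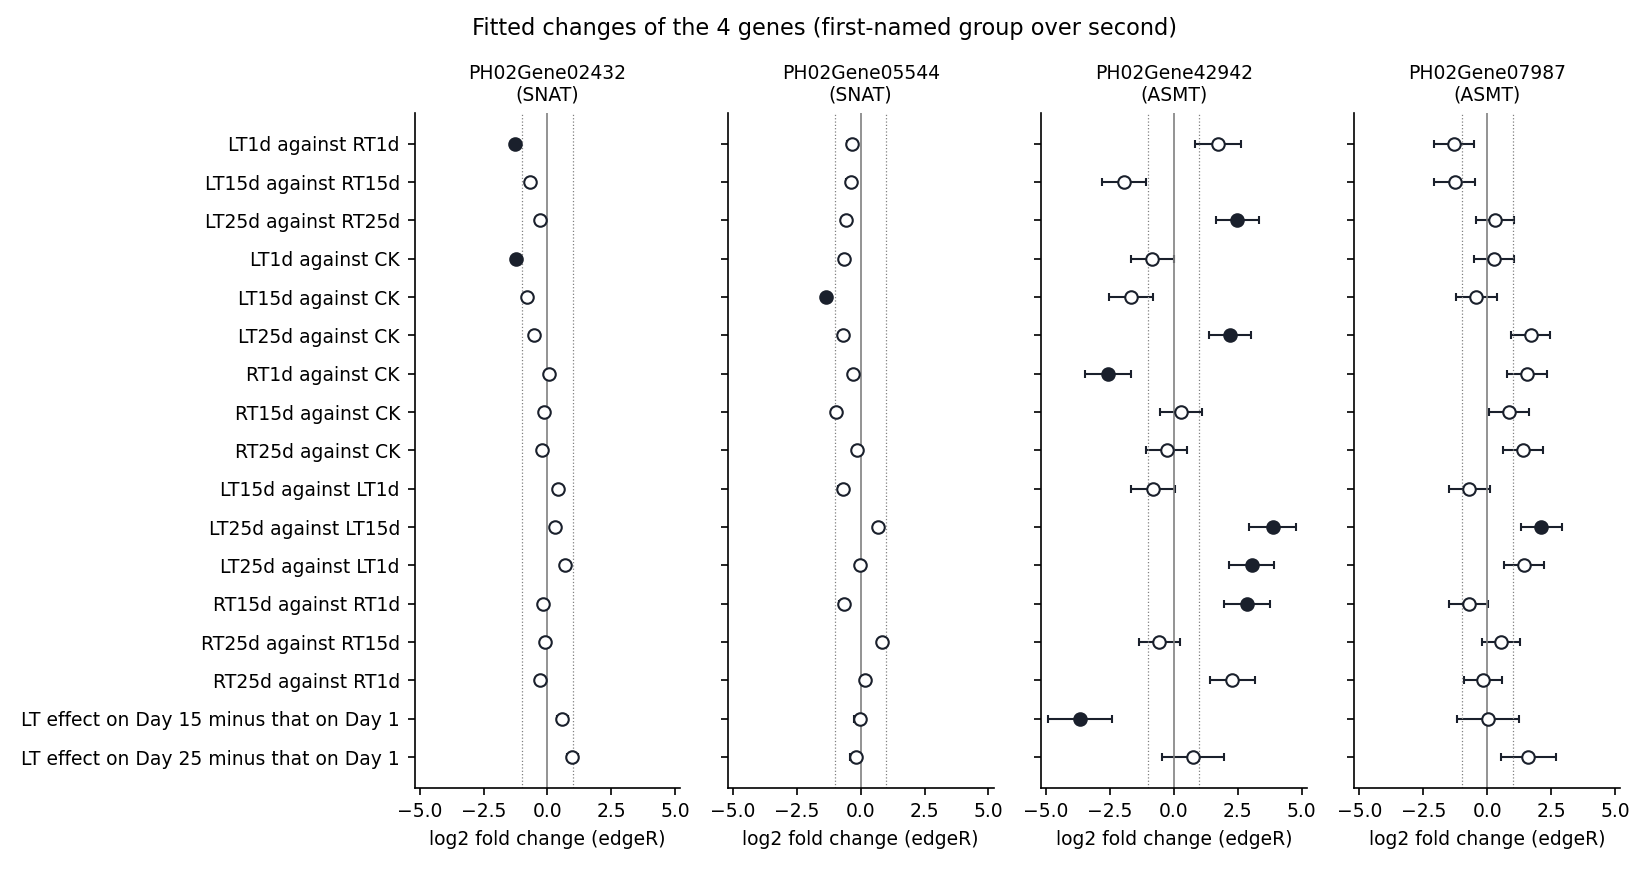
Fitted log2 fold changes (points, first-named group over second) with their SE (lines) for the 4 genes in all 17 comparisons. Filled points were called (edgeR adjusted p at most 0.05 and at least 2-fold), and dotted lines mark a 2-fold change. Of 11 filled points, 7 belong to PH02Gene42942, whose SE are 0.81 to 1.24, wider than those of the SNAT genes.

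The third comparison followed the genes over time at each temperature. Under LT, PH02Gene02432 had means of 4.47, 6.07, and 9.84 FPKM on Days 1, 15, and 25, and no library of one day overlapped those of another. The log2 fold change was 0.40 ± 0.16 in LT15d against LT1d and 0.30 ± 0.15 in LT25d against LT15d (SE, edgeR adjusted p = 0.0357 and 0.105). In LT25d against LT1d it was 0.70 ± 0.16 (SE, edgeR adjusted p = 0.000859), under the 2-fold limit, and 1.17 with scaling by library size only, where it was called. Under RT the gene had means of 15.6, 13.0, and 12.6 FPKM on the same days. All 3 RT changes were small, at −0.17, −0.10, and −0.27 with SE of 0.15 each, for RT15d against RT1d, RT25d against RT15d, and RT25d against RT1d (edgeR adjusted p = 0.429, 0.648, and 0.182).

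PH02Gene05544 had its lowest mean on Day 15 at both temperatures. Its means under LT were 12.1, 7.63, and 16.0 FPKM on Days 1, 15, and 25, and under RT 22.3, 13.2, and 24.3 FPKM. The log2 fold change was −0.71 ± 0.16 in LT15d against LT1d and −0.67 ± 0.16 in RT15d against RT1d (SE, edgeR adjusted p = 0.00101 and 0.00505). It was 0.68 ± 0.16 in LT25d against LT15d and 0.84 ± 0.16 in RT25d against RT15d (SE, edgeR adjusted p = 0.00163 and 0.000495). All 4 steps were under the 2-fold limit, but LT25d against LT15d passed it and was called with scaling by library size only (1.12) and in limma on log2(FPKM + 0.1) (1.07). The libraries of neighbouring days did not overlap at either temperature. In LT25d against LT1d the log2 fold change was −0.03 ± 0.16 (SE, edgeR adjusted p = 0.867), although all LT25d libraries lay above those of LT1d in FPKM. In RT25d against RT1d it was 0.16 ± 0.16 (SE, edgeR adjusted p = 0.448).

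PH02Gene42942 rose late under LT and early under RT. Its means under LT were 0.811, 0.467, and 9.05 FPKM on Days 1, 15, and 25. All LT25d libraries lay far above those of the earlier days, and the gene rose in LT25d against LT15d by 3.86 ± 0.91 and against LT1d by 3.04 ± 0.87 on the log2 scale (SE, edgeR adjusted p = 0.00165 and 0.00597). Both calls held with any one library left out, and both were lost when the groups with little spread were summed (adjusted p = 0.196 and 0.0844). Under RT the means were 0.344, 2.40, and 1.68 FPKM. All RT15d libraries lay above all RT1d libraries, and the gene rose in RT15d against RT1d by 2.85 ± 0.90 (SE, edgeR adjusted p = 0.0264). That call was lost without RT1d replicate 1 (adjusted p = 0.0953), RT1d replicate 2 (0.0630), or any RT15d library (0.0501 to 0.0585), and with the groups summed (0.324). RT25d against RT1d had 2.29 ± 0.89 (SE, edgeR adjusted p = 0.0541).

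PH02Gene07987 had means of 0.234, 0.150, and 0.874 FPKM under LT and 0.855, 0.479, and 0.731 FPKM under RT on Days 1, 15, and 25. It rose in LT25d against LT15d by 2.12 ± 0.80 on the log2 scale (SE, edgeR adjusted p = 0.0316), and the libraries did not overlap. Counts were 7 to 27 in LT15d and 40 to 106 in LT25d. The gene passed the filter with 3 libraries, most of them of LT25d, so this call is not independent of the filter. The call was lost without LT15d replicate 1 (adjusted p = 0.106) or 2 (0.114), without LT25d replicate 1 (0.0787) or 3 (0.0865), with the groups summed (0.350), and in limma on log2(FPKM + 1), where the fold change was under the limit (0.68). Over time, 2 of the 4 genes were called in LT25d against LT15d beside 33.0% of all tested genes. In LT25d against LT1d 1 gene was called beside 39.3%, and in RT15d against RT1d 1 gene beside 11.1%. None was called in LT15d against LT1d, RT25d against RT15d, or RT25d against RT1d, where 36.6%, 19.5%, and 19.3% of all tested genes were called. In those 3 comparisons 2, 1, and 1 genes had an unadjusted edgeR p under 0.05. Limma called 0 in each, and DESeq2 called 1, in RT25d against RT1d.

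In the order of the group means, PH02Gene02432 was highest in RT1d, followed by RT15d, RT25d, CK, LT25d, LT15d, and LT1d. Neighbours from RT15d down to LT25d overlapped, whereas RT1d, LT15d, and LT1d each stood apart from the group next to it. RT1d did so narrowly, its lowest library having 13.59 FPKM against 13.57 FPKM in the highest of RT15d. The fitted log2 fold change of RT15d against RT1d was −0.17 (edgeR adjusted p = 0.429). PH02Gene05544 ran from RT25d through RT1d, CK, LT25d, RT15d, and LT1d to LT15d, and the first 3 overlapped, as did RT15d and LT1d. For PH02Gene42942 LT25d stood apart at the top and the other 6 groups overlapped with their neighbours. For PH02Gene07987 all neighbours overlapped.

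The sum of the SNAT genes exceeded that of the ASMT genes in every library, but by very different amounts. The ratio of the FPKM sums was 2.48, 2.99, and 2.42 in LT25d, against 38.5, 17.1, and 10.3 in RT25d. LT25d thus had the lowest ratios of all groups. In the other groups the ratio was between 8.74 and 56.2, both ends included. The 2 ASMT genes also contributed unequally. PH02Gene42942 held 89.2% to 95.4% of their sum in LT25d, but 7.40% to 44.4% in RT1d.

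Genes upstream of SNAT were given by the words in their descriptions, from lists chosen with earlier results known. No description named T5H. The shares of all tested genes called in LT1d, LT15d, and LT25d against RT were 44.2%, 40.1%, and 24.5%, as above. Of 8 genes in the TDC list, 6 were tested, and 5 were higher in LT1d than in RT1d, with a median log2 fold change over the list of 5.35 against −0.06 over all tested genes. PH02Gene31517, described as an aromatic-L-amino-acid decarboxylase, had 227 ± 28.2 FPKM in LT1d and 6.67 ± 1.14 FPKM in RT1d (SD, n = 3 each), a log2 fold change of 5.61 ± 0.68 (SE, edgeR adjusted p = 1.33e-06). PH02Gene31518, whose description names tyrosine and DOPA as substrates, had 5.49 ± 0.69 (SE, edgeR adjusted p = 1.97e-06). In LT15d against RT15d 3 TDC genes were higher and 1 lower (list median 1.17 against −0.02 over all tested genes). PH02Gene31517 and PH02Gene42909 had log2 fold changes of 2.43 and 2.39, while PH02Gene42906 had −2.53 at 0.138 ± 0.0671 FPKM in LT15d and 1.10 ± 0.443 FPKM in RT15d (SD, n = 3 each), a call held in 3 of the 6 fits that leave out 1 library. With LT15d and RT15d each summed to 1 library 0 TDC genes were called on Day 15, and limma called 2. In LT25d against RT25d none of the 6 was called, and none had an unadjusted edgeR p under 0.05 (list median −0.59 against −0.02). On the 3 days 83.3%, 66.7%, and 0% of the tested TDC genes were thus called. Limma and DESeq2 also called 0 there, although without RT25d replicate 3 edgeR called 4.

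All 19 genes of tryptophan synthesis, which supply the substrate of TDC, were tested. In LT1d against RT1d 14 were higher and 1 was lower, with a list median of 3.31. PH02Gene25595, an indole-3-glycerol phosphate synthase, and PH02Gene10139, a tryptophan synthase beta chain, had log2 fold changes of 6.45 and 5.24. PH02Gene48664, an anthranilate synthase beta subunit, was lower (17.5 ± 1.96 FPKM in LT1d and 50.6 ± 6.76 FPKM in RT1d, SD, n = 3 each), just past the fold limit, a call held in 4 of the 6 fits that leave out 1 library. In LT15d against RT15d 8 were higher and 1 lower (list median 0.73), led by the anthranilate synthase alpha subunit PH02Gene06033 (3.47, at 1.14 ± 0.105 FPKM in LT15d and 0.134 ± 0.129 FPKM in RT15d) and by PH02Gene10139 (2.92). The lower gene, PH02Gene03976, had −1.03 and was called in none of the 6 fits that leave out 1 library. In LT25d against RT25d 1 was higher and 3 lower (list median −0.20), with PH02Gene48664 at −1.74 and PH02Gene33171, called in none of those 6 fits, at 1.71. The shares called on the 3 days were 78.9%, 47.4%, and 21.1%, beside 44.2%, 40.1%, and 24.5% of all tested genes. The count of 4 on Day 25 fell to 1 without any one LT25d library or without RT25d replicate 2.

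Of the genes for conjugation and breakdown, 3 were found and 2 tested, both described as tryptamine hydroxycinnamoyltransferase, which joins tryptamine to phenolic acids. Both were higher in LT1d than in RT1d (PH02Gene48286 2.80, PH02Gene48782 1.78, list median 2.29), and limma called 1. None was called on Day 15 (0 at an unadjusted edgeR p under 0.05, and 0 by limma and DESeq2, list median 0.64). In LT25d against RT25d PH02Gene48782 was higher (2.02, list median 1.07), a call that limma did not make and that was lost with the groups summed.

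The term K22588 of the ASMT genes was carried by 11 other genes, 4 of them tested. This list was added after the data were seen. In LT15d against RT15d all 4 were lower (list median −1.99). PH02Gene46923 had 4.76 ± 0.184 FPKM in LT15d and 34.0 ± 0.444 FPKM in RT15d (SD, n = 3 each), and its log2 fold change was −2.44 ± 0.40 (SE, edgeR adjusted p = 4.50e-05), while PH02Gene46922 had −2.43. With the groups summed 0 of the 4 were called. In LT1d against RT1d the same 2 genes were lower (−1.16 and −1.05, list median −0.44), a count of 2 that was 0 without LT1d replicate 1, 1 without LT1d replicate 3, 1 without RT1d replicate 1 or 2, and 1 with the replicate number as a block. In LT25d against RT25d PH02Gene46923 (−2.98) and PH02Gene46922 (−2.89) were lower and PH02Gene41244, described as an O-methyltransferase ZRP4, was higher (1.57, list median −0.79). On Days 1, 15, and 25, 2, 4, and 3 of the 4 genes were thus called, beside 44.2%, 40.1%, and 24.5% of all tested genes. PH02Gene46922 and PH02Gene46923 carry the same description and may share reads.

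The KEGG map of tryptophan metabolism held 145 genes beside PH02Gene42942 and PH02Gene07987, 89 of them tested. These include TDC genes and the 4 tested genes of the K22588 list, which are thus counted again here. In LT1d, LT15d, and LT25d against RT, 19, 20, and 13 were higher and 31, 31, and 20 were lower, so that 56.2%, 57.3%, and 37.1% of them were called beside the shares of all tested genes given above. The list medians were −0.36, −0.01, and −0.11. At most 2 genes in each direction were named per day, and TDC genes took both places of higher genes in LT1d and 1 in LT15d. The other genes so named were PH02Gene11512, a tyrosine decarboxylase (−3.05), and PH02Gene40455 (8.02-fold lower) in LT1d, and the flavin-containing monooxygenase PH02Gene01633 (2.74), PH02Gene42481 (−4.00), and PH02Gene00731 (−3.76) in LT15d. In LT25d they were catalase-1 PH02Gene34256 (4.04), PH02Gene00731 (3.99), PH02Gene23299 (−3.97), and PH02Gene29326 (−3.18).

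**Figure D3:**
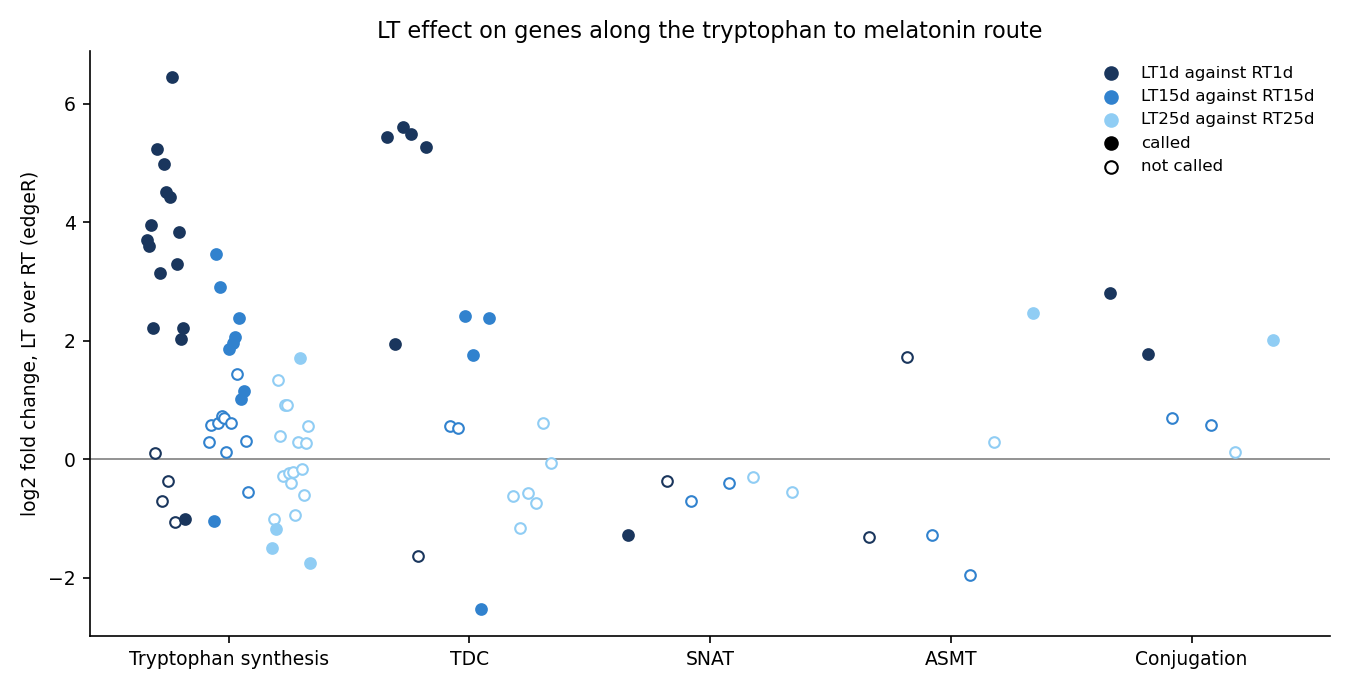
Log2 fold change of LT over RT (edgeR) for each tested gene of tryptophan synthesis, TDC, SNAT, ASMT, and conjugation, with Days 1, 15, and 25 in dark, middle, and light blue. Filled points were called. On Day 1 called genes of tryptophan synthesis and TDC reach 6.45 and 5.61, whereas the SNAT genes lie at −1.27 and −0.36.

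Expression of PH02Gene02432 followed that of PH02Gene05544 with a Pearson r of 0.72 over the 21 libraries (log2(FPKM + 1)), and the ASMT genes followed each other with r = 0.43. All r given here describe libraries that share depth, scaling, and group structure, and no test was made. The genes most like PH02Gene02432 were PH02Gene23317, described as a poly(A) RNA polymerase (r = 0.971), PH02Gene32206, subunit IV of the photosystem I reaction center (0.971), and PH02Gene13155, a thylakoid lumen protein (0.971). The genes most like PH02Gene05544 were PH02Gene08262 (0.951), the pectin acetylesterase PH02Gene01625 (0.944), and PH02Gene47733, with an AT-rich interactive domain (0.940). PH02Gene42942 was most like PH02Gene47858, a sterol C-methyltransferase (0.902), PH02Gene30920 (0.891), and PH02Gene28665, a serine hydrolase family protein (0.873). By ranks of the libraries (Spearman's rho) these values were lower, at 0.825, 0.782, and 0.768. PH02Gene07987 was most like COP9 signalosome subunits 4 (PH02Gene39070, 0.901) and 1 (PH02Gene13390, 0.887), and PH02Gene06813 (0.887).

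The summed level of the 14 chlorophyll a-b binding genes moved with PH02Gene02432 (r = 0.756 over 21 libraries, 0.773 over the 7 group means), and less with PH02Gene05544 (0.294), PH02Gene42942 (0.0379), and PH02Gene07987 (0.155). On Day 15 the sum was 177 to 180 FPKM in LT15d, against 320 to 355 FPKM in RT15d. On Day 25 it was 128 to 132 FPKM in LT25d, against 44.1 to 124 FPKM in RT25d, where PH02Gene02432 had a mean of 9.84 FPKM in LT25d and 12.6 FPKM in RT25d. The summed level of 38 genes for 3-ketoacyl-CoA synthase, markers of epidermis and cuticle, was 144 to 199 FPKM in LT1d, against 704 to 850 FPKM in RT1d. On Day 15 it was 86.7 to 90.7 FPKM in LT15d, against 339 to 378 FPKM in RT15d. On Day 25 it was higher in LT, at 303 to 310 FPKM in LT25d, against 137 to 279 FPKM in RT25d, while the means of both SNAT genes were lower in LT25d. It moved with PH02Gene02432 (r = 0.781) and PH02Gene05544 (0.710), and less with PH02Gene42942 (0.211) and PH02Gene07987 (0.493). Markers of dividing cells (5 genes) had mean sums of 31.0, 14.1, and 46.6 FPKM in LT1d, LT15d, and LT25d. In RT1d, RT15d, and RT25d they had 43.4, 41.0, and 51.5 FPKM. Those of secondary wall (3 genes) had 0.408, 1.90, and 0.227 FPKM under LT and 2.29, 3.99, and 0.303 FPKM under RT. On Day 1 the secondary wall sums overlapped, at 0.252 to 0.503 FPKM in LT1d and 0.256 to 6.22 FPKM in RT1d. They overlapped on Day 25 also, but not on Day 15. No r with the 4 genes was computed for either list. The part of these tissues in the differences of the SNAT genes was not tested.

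**Figure D4:**
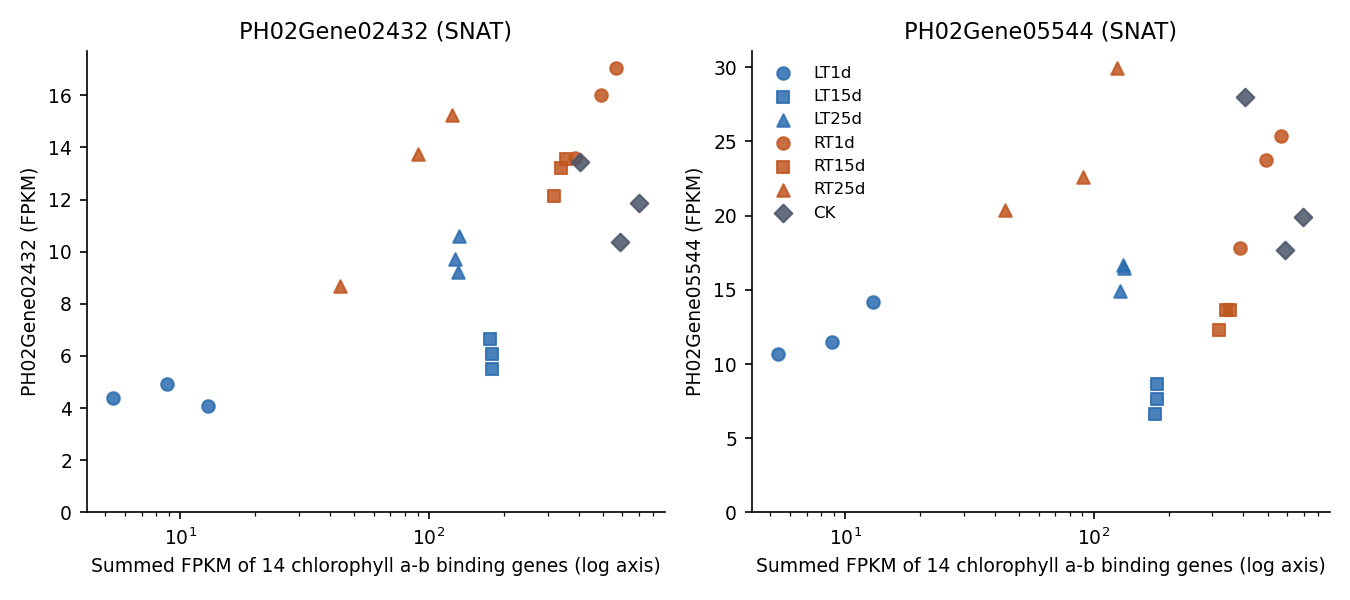
FPKM of the SNAT genes (vertical) against the summed FPKM of 14 chlorophyll a-b binding genes (horizontal, log axis), 1 point per library. LT is blue, RT orange, and CK grey, and circles, squares, and triangles mark Days 1, 15, and 25. LT1d lies at the lower left for PH02Gene02432, at 4.07 to 4.94 FPKM, while LT15d has the lowest PH02Gene05544.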

How the data were processed

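RNA of Pn culms was sequenced in paired ends, and the authors used HISAT2 to map clean reads to P. edulis and StringTie for assembly. The submitters' processing notes list cutadapt, FastQC, and Salmon. The labels describe cDNA made with SMARTer oligonucleotides, whereas the methods describe mRNA isolation. The authors deposited FPKM, scaled by transcript length and mapped fragments, and an estimated count for 42460 genes in 21 libraries. No source used here names the tool that made the counts. The counts were whole numbers, so rounding changed none.

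Groups came from the labels. Genes with at least 1 FPKM in at least 3 libraries (29913) were tested with edgeR (version 4.0.16, glmQLFit and glmQLFTest, TMM scaling, R 4.3.3), with a mean per group over all 21 libraries, in 17 comparisons. Alternatives were median-of-ratios or library-size scaling, a mean FPKM of at least 5 or no filter, the replicate block, counts divided by 4, the 3 groups with little spread (LT15d, LT25d, and RT15d) summed to 1 library per group, the compared libraries alone, leaving out each library, limma (3.58.1) on log2(FPKM + 1) or log2(FPKM + 0.1), and DESeq2 (1.42.0). The tools edgeR, limma, and DESeq2 were tried on counts simulated for LT1d and RT1d alone, with limma on log counts rather than on FPKM. The fits over all 7 groups and limma on FPKM were not tried in this way. The smallest p of an exact permutation test of 3 against 3 libraries is 0.1, and for this reason the p-values given are those of the fits over all genes. The SE given are those of the edgeR fit and cover the spread between libraries only.

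Named genes were the 4 genes, the 3 tested genes with the highest Pearson r to each, and, per pathway list and LT against RT comparison, up to 2 called genes per direction with the largest fold change whose libraries did not overlap. The genes and lists were chosen with earlier results of these data known. The K22588 list was added after the data were seen. Another list of the pathway is not reported here.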

Additional observations from a re-analysis of the deposited data

Results flagged for a closer look

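The LT effect (LT minus RT, log2 scale) differed between days at an adjusted p of 0.05 or less, by a test of the difference itself, in 2 of the 4 genes. Of these, only PH02Gene42942 on Day 15 also reached the 2-fold limit, so that 1 and 0 of the 4 genes were called for Day 15 and Day 25 minus Day 1, beside 33.2% and 44.9% of all tested genes. For PH02Gene02432 it was higher on Day 15 than on Day 1 by 0.57 (edgeR adjusted p = 0.0398) and on Day 25 than on Day 1 by 0.97 (edgeR adjusted p = 0.00103), which left a smaller deficit in LT. For PH02Gene42942 the difference of Day 15 from Day 1 was −3.68 (edgeR adjusted p = 0.0221). Groups of 3 libraries were too small to be searched for single outlying libraries.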

How the results depend on the processing

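Of 11 called results of the 4 genes, 3 were called under every setting tried (PH02Gene02432 in LT1d against RT1d and against CK, PH02Gene05544 in LT15d against CK), 8 were lost under at least 1, and 0 changed sign. A mean FPKM of at least 5 kept only the SNAT genes and gives no count.

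The number of the 4 genes called moved as follows. In LT1d against RT1d (1 called) it was 2 with limma on log2(FPKM + 0.1) and with the compared libraries alone. In LT15d against RT15d (0 called) it was 2 with library-size scaling and with limma on log2(FPKM + 0.1), and 1 with counts divided by 4, limma on log2(FPKM + 1), the compared libraries alone, and DESeq2 (0 to 1 with a library left out). In LT25d against RT25d (1) it was 0 with the groups summed (0 to 1 with a library left out). In LT25d against CK (1) it was 2 with library-size scaling, counts divided by 4, and limma on log2(FPKM + 0.1), and 0 with the groups summed, the compared libraries alone, and the replicate block (0 to 2 with a library left out). In RT1d against CK (1) it was 0 with the groups summed, limma on log2(FPKM + 1), and the compared libraries alone (0 to 1 with a library left out), and the gene called was PH02Gene07987 in place of PH02Gene42942 with limma on log2(FPKM + 0.1) and without CK replicate 1. In RT15d against CK (0) it was 0 to 1 with a library left out, and in RT25d against CK (0) it was 1 with limma on log2(FPKM + 0.1) and 0 to 1 with a library left out. In LT25d against LT15d (2) it was 3 with library-size scaling and limma on log2(FPKM + 0.1), 0 with the groups summed, and 1 with limma on log2(FPKM + 1) (1 to 2 with a library left out). In LT25d against LT1d (1) it was 3 with library-size scaling and limma on log2(FPKM + 0.1), 2 with the compared libraries alone, and 0 with the groups summed. In RT15d against RT1d (1) it was 0 with the groups summed (0 to 1 with a library left out), and in RT25d against RT1d (0) 1 with DESeq2 (0 to 1 with a library left out). For the LT effect on Day 15 minus Day 1 (1) it was 0 with the groups summed (0 to 1 with a library left out). For Day 25 minus Day 1 (0) it was 2 with limma on log2(FPKM + 1), and 1 with library-size scaling, limma on log2(FPKM + 0.1), and the compared libraries alone (0 to 1 with a library left out). Summing leaves fewer libraries, and the lone library of a summed group is assumed to vary like the other groups. For the other settings the cause was not tested.

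With the replicate number as a block, LT25d against CK was the only comparison of the 4 genes whose count of calls changed (PH02Gene42942, 2.14, adjusted p = 0.0549). No pairing of libraries by number was seen. Deviations of same-numbered libraries correlated with a mean r of −0.00187 (range −0.113 to 0.0916, 63 pairs), and 4 of 21 libraries were closest to their own number. Libraries of LT15d, LT25d, and RT15d differed by little more than counting noise, so these values cannot show whether the numbers pair libraries. Low counts limit the ASMT genes (0 to 106 per library for PH02Gene07987).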
